A study of Mus musculus with 2 samples.

Results

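The semaphorins, plexins and neuropilins were examined in the hindbrain of the mouse embryo as a set of 31 genes, 20 semaphorins, 9 plexins and 2 neuropilins, out of 43346 genes in the gene tables. They were chosen by name, not by their levels, although earlier results of these data were known at that point. Each of the 31 symbols matched 1 gene identifier once its version was removed, and all 31 are annotated as protein coding. The study sequenced total RNA of the hindbrain, from which the medulla, pons and cerebellum arise. Both libraries belong to 1 group, embryos of strain B6NCrl at 14.5 days of gestation, with no treatment, transgene or mutant allele named in the labels. Each was made from 10 ng of RNA longer than 200 nt from the hindbrain of 1 pup, with spike-in RNA added. The pups have different collection dates, and an effect of date cannot be told apart from one of replicate. Sex is labelled as pooled although each sample is called a single hindbrain, and the donor identifier is the same for both, so only the labels of pup and date make these separate embryos. There is no second condition. What can be described is how much of each gene the tissue held and how far the 2 libraries differed.

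Semaphorins are guidance proteins that repel or attract growing axons, migrating neurons and vessels. Class 3 members are secreted, classes 4, 5 and 6 span the membrane, and class 7 is tethered to it by a lipid anchor. Plexins are the receptors that carry the signal into the cell through small GTPases, and neuropilins are the co-receptors through which most class 3 semaphorins reach A-type plexins. In the embryonic hindbrain these proteins are known for guiding cranial motor and commissural axons and for the migration of cerebellar granule cells and of precerebellar and facial neurons.

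The sequences that the transcript results below turn on are the coding ends of the neuropilins and a few stretches that some coding transcripts include and others skip. All are given 5′ to 3′ from the transcripts of GENCODE M21 on GRCm38, the assembly also called mm10. First come the last 60 coding bases of Nrp1 (chr8:128502755-128502814, plus strand) and of the 2 endings of Nrp2 (chr1:62815578-62815637 for Nrp2-204 and chr1:62795930-62795989 for Nrp2-201, plus strand), with the last 3 codons and the stop codon in capitals:
Nrp1-201: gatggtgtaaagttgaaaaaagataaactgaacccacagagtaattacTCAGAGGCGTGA
Nrp2-204: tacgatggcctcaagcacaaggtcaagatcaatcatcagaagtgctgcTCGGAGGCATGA
Nrp2-201: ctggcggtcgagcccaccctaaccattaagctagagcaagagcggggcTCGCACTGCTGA

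The optional coding stretches are printed in lower case throughout, since each is present or absent as a whole. Those of Nrp2 are 15 nt long at chr1:62786302-62786316 and 51 nt long at chr1:62812534-62812584. Those of Sema6d, also on the plus strand, are 39 nt at chr2:124660244-124660282, 57 nt at chr2:124660705-124660761 and 156 nt at chr2:124662204-124662359. That of Sema5b is 87 nt at chr16:35660071-35660157. All 6 are coding exon sequence in the transcripts that hold them, and the length of each is a multiple of 3:
Nrp2, 15 nt: gtgaggattttaaag
Nrp2, 51 nt: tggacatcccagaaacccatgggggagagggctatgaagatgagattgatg
Sema6d, 39 nt: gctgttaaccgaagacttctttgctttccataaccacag
Sema6d, 57 nt: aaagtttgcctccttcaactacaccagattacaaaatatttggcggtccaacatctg
Sema6d, 156 nt: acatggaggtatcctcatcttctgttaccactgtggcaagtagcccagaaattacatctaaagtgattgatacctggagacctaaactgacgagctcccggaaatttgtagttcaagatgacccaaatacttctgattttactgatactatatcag
Sema5b, 87 nt: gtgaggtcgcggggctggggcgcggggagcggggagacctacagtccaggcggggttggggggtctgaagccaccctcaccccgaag

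The libraries held 34929425 and 33510896 expected counts, spike-in RNA included, and the 31 genes took 68042 and 64533 of them. Levels are in TPM, a share of all transcripts that is corrected for length, so that genes can be compared with each other. Of the list of hindbrain genes 6 of 7 reached 1 TPM in both replicates (En2, a gene of the midbrain and cerebellar border, was at 0.05 and 0.79 TPM) and of the list of forebrain genes 0 of 5. How much cerebellar tissue the samples held was not tested, and no level below can be read as that of the cerebellum. Markers of cells other than neurons were present. Summed over their lists, 4 choroid plexus genes stood at 1910 and 1147 TPM, 5 genes of meninges and fibroblasts at 730.4 and 605.2 TPM, 5 genes of oligodendrocyte precursors at 110.3 and 140.1 TPM, 6 endothelial genes at 185 and 182.6 TPM and 6 microglial genes at 99.7 and 99.7 TPM. In bulk tissue, fewer cells of a type and less RNA per cell cannot be told apart, and no level below can be given to a cell type.

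Nearly the whole family was expressed. A level of at least 1 TPM in both replicates was reached by 29 of the 31 genes (93.5%), beside 62.5% of 21474 protein-coding genes, and at least 10 TPM by 21 (67.7%), beside 41.6%. The 29 were not highly abundant: their median was 14 TPM, beside 17.2 TPM over all 15088 detected genes, and 2183 genes stood above the highest member. The exceptions were Sema3g, a secreted class 3 semaphorin, at 0.25 and 0.22 TPM, and Plxnb3, a B-type plexin, at 0.47 and 0.47 TPM. They rested on 24 and 19 counts (exact 95% Poisson intervals 15.4 to 35.7 and 11.4 to 29.7) and on 58 and 50 counts (44.04 to 74.98 and 37.1 to 65.9), so both were low rather than absent, and these intervals cover counting error only. Semaphorins summed to 294 ± 16.6 TPM, plexins to 238.3 ± 1.44 and neuropilins to 67.7 ± 1.65 (mean ± SD, n = 2, as for all values in this form).

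**Figure D1:**
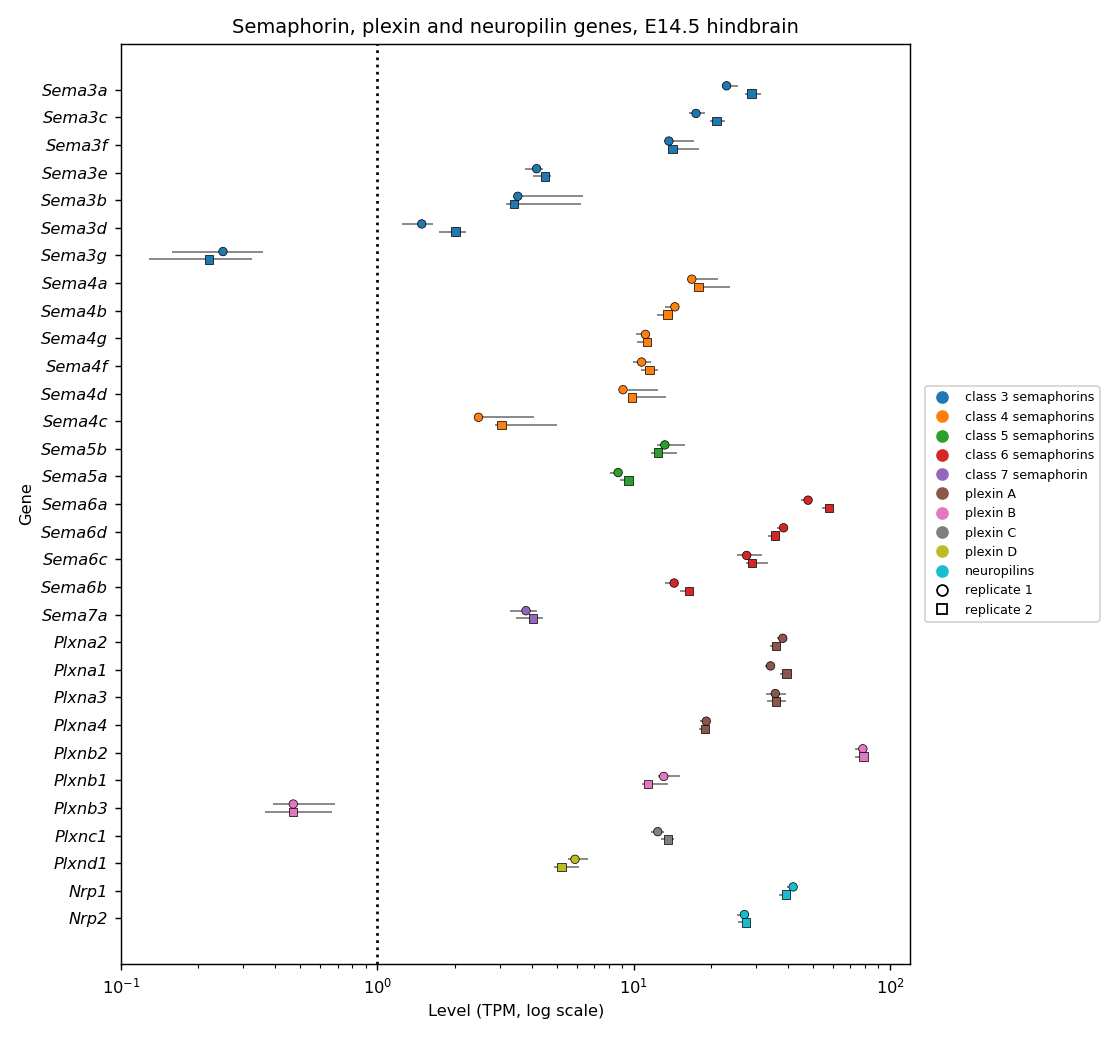
Level of each of the 31 genes in TPM on a log scale, replicate 1 as circles and replicate 2 as squares, with the authors' deposited credibility interval of each as a line; colours mark the classes and the dotted line 1 TPM. Only Sema3g and Plxnb3 lie below that line, and Plxnb2 lies farthest to the right at 78.3 and 78.6 TPM.

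Among the ligands, the membrane-spanning class 6 led. Its 4 genes held 45.4% ± 0.07 of all semaphorin TPM, the 7 of class 3 held 23.4% ± 1.19, the 6 of class 4 held 22.4% ± 0.70, the 2 of class 5 held 7.47% ± 0.41 and Sema7a 1.34% ± 0.02. Sema6a (chr18:47235598-47368870, minus strand), a ligand of Plxna2 and Plxna4 that acts in granule cell migration, was the highest semaphorin at 47.8 TPM in replicate 1 and 57.6 TPM in replicate 2. Sema6d (chr2:124089969-124667770), a ligand of Plxna1, followed at 38.4 and 35.5 TPM. Replicate 2 was the higher library for Sema6a and the lower for Sema6d. Sema6c, a further class 6 member, stood at 27.6 and 28.9 TPM. Sema6b, like Sema6a a ligand of A-type plexins, was the lowest of the class at 14.4 and 16.5 TPM.

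The secreted class 3 semaphorins covered the widest fold range of the semaphorin classes, from 0.22 to 28.8 TPM. Sema3a, the collapsin that signals through Nrp1, was highest at 23.0 and 28.8 TPM and made up 37.6% of the class sum. Sema3c, which acts through either neuropilin, had 17.5 and 21 TPM, and Sema3f, the main ligand of Nrp2, had 13.7 and 14.1 TPM. Both Sema3a and Sema3c were lower in replicate 1, without overlap with each other in either library. The remaining members were near or below 5 TPM. Sema3e, which binds Plxnd1 without a neuropilin, had 4.18 and 4.50 TPM, Sema3b, a ligand of Nrp2 in commissural axons, 3.53 and 3.41 TPM, and Sema3d 1.49 and 2.02 TPM. The level of Sema3b in replicate 1 lay below its deposited interval of 3.62 to 6.32 TPM, and the deposited posterior means put Sema3b at 4.78 TPM.

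Class 4 was even by comparison. Sema4a stood at 16.8 and 17.9 TPM and Sema4b at 14.5 and 13.5 TPM. Sema4g, a ligand of Plxnb2 in the cerebellum, had 11.1 and 11.3 TPM. Sema4f had 10.7 and 11.5 TPM. Thus 4 of the 6 lay between 10 and 18 TPM in both libraries. Sema4d, the ligand of Plxnb1, had 9.08 and 9.83 TPM. The levels of Sema4a and Sema4d lay below their own deposited intervals in both libraries. By the deposited posterior means they were higher, at 20.1 TPM for Sema4a and 11.3 TPM for Sema4d. Sema4c, which binds Plxnb2, was the lowest at 2.48 and 3.05 TPM. Of class 5, whose proteins carry thrombospondin repeats, Sema5b stood at 13.2 and 12.4 TPM and Sema5a at 8.69 and 9.54 TPM, with no overlap between the genes. Sema7a, the anchored semaphorin that binds Plxnc1 and beta-1 integrin, had 3.80 and 4.05 TPM.

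Among the receptors, A-type plexins held 54.0% ± 0.52 of all plexin TPM and B-type plexins 38.3% ± 0.63. Plxna1, Plxna2 and Plxna3 were close to each other: Plxna2, a receptor of Sema6a, had 38.1 and 35.8 TPM, Plxna1 34.2 and 39.4 TPM, and Plxna3, the partner of Nrp2 in responses to Sema3f, 35.6 and 35.8 TPM. Plxna4, the partner of Nrp1 in responses to Sema3a, was lower at 19.2 and 19.0 TPM. Both statements hold for all transcripts together: with coding transcripts alone Plxna3 had 19.1 and 19.3 TPM, close to Plxna4 and below Plxna1 and Plxna2. Plxnb2 (chr15:89155549-89180788, minus strand), a receptor of class 4 semaphorins needed for granule cell development, was the highest of all 31 genes at 78.3 and 78.6 TPM. Plxnb1, the receptor of Sema4d, had 13.1 and 11.4 TPM. Plxnb2 alone made up 86.1% of the B-type sum. Plxnc1, the receptor of Sema7a, stood at 12.4 and 13.6 TPM, and Plxnd1, the receptor of Sema3e best known from vessels, at 5.90 and 5.22 TPM.

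Both neuropilins were among the highest members. Nrp1 (chr8:128358604-128503363, plus strand), also a receptor of VEGF, had 41.8 and 39.2 TPM, and Nrp2 (chr1:62703285-62818695, plus strand) 27.0 and 27.4 TPM. Nrp1 was higher than Nrp2 in both libraries and held 59.8% of their sum. Set side by side as textbook pairs, Sema3a with Nrp1 read 25.9 ± 4.12 and 40.5 ± 1.88 TPM, Sema3f with Nrp2 13.9 ± 0.30 and 27.2 ± 0.23, and Sema3e with Plxnd1 4.34 ± 0.23 and 5.56 ± 0.48. Sema4d with Plxnb1 read 9.46 ± 0.53 and 12.2 ± 1.20 TPM, and Sema7a with Plxnc1 3.93 ± 0.18 and 13.0 ± 0.83. In these 5 pairs the receptor had the higher mean, but Sema3a was above Plxna4, at 19.1 ± 0.14 TPM, in both libraries. For Sema4d and Plxnb1 the deposited intervals overlapped in replicate 2, at 10.3 to 13.3 and 10.8 to 13.5 TPM. Of the class 6 pairs, Sema6a was above its receptors, while Sema6d and Plxna1 overlapped in their replicates. Sema6a read 52.7 ± 6.92 TPM beside 37.0 ± 1.63 for Plxna2 and 19.1 ± 0.14 for Plxna4, and Sema6d 36.9 ± 2.04 beside 36.8 ± 3.66 for Plxna1. With coding transcripts alone Sema6a, at 32.9 ± 5.02 TPM, was below Plxna2, at 34.5 ± 1.21, and Sema6d, at 31.3 ± 0.69, below Plxna1. RNA levels in whole tissue do not show which cells hold either partner.

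Ranked by mean level, Plxnb2, Sema6a and Nrp1 came first. Plxnb2 and Sema6a were apart from each other and from Nrp1 in replicates and deposited intervals. Nrp1 was not apart from the genes below it, since its deposited interval overlapped that of Plxna2 and its replicates, 41.8 and 39.2 TPM, those of Plxna1, 34.2 and 39.4 TPM. Plxna2, Sema6d, Plxna1 and Plxna3 followed within 35.7 to 37.0 TPM, and each overlapped with the next in its replicates, so no order among these 4 can be given. Over the whole ranking, 11 of the 30 neighbouring pairs overlapped in their replicates and 19 did not. The lower end was clearly ordered, from Sema4c through Sema3d and Plxnb3 to Sema3g, with neither replicates nor intervals overlapping.

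The high level of Plxnb2 rested in large part on a short non-coding transcript. Plxnb2-205, annotated as a processed transcript (chr15:89155549-89156572, minus strand, 3 exons), had 38.5 and 35.5 TPM, and Plxnb2-202, the main coding transcript, 35.4 and 36.0 TPM. In each library the 2 transcripts thus had about equal TPM, but Plxnb2-205, 841 nt long in the authors' tables, took 611 and 514 of the 5514 and 5206 counts of the gene, and Plxnb2-202 took 4751 and 4419. All 834 bases of Plxnb2-205 in GENCODE M21 also lie in Plxnb2-202, within bases 5586 to 6497 at its 3′ end, so the division of reads between them is the authors' estimate. The deposited intervals in replicate 1 were 33.8 to 41.1 TPM for Plxnb2-205 and 30.7 to 35.9 TPM for Plxnb2-202.

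With protein-coding transcripts alone, a choice made after the data were seen, Plxnb2 stood at 37.0 ± 1.08 TPM and Nrp1, at 40.5 ± 1.88 TPM, had the highest mean of the 31. Nrp1 has only 1 quantified transcript, a coding one, so this choice could not lower its level. Plxna1 followed at 36.8 ± 3.66 TPM, then Plxna2 at 34.5 ± 1.21, Sema6a at 32.9 ± 5.02 and Sema6d at 31.3 ± 0.69. Nrp1 was first in replicate 1, at 41.8 TPM, but in replicate 2 Plxna1, at 39.4 TPM, was just above it at 39.2 TPM, so no order between them can be given. The A-type share of plexin TPM was then 62.1% in place of 54.0% and the B-type share 27.5% in place of 38.3%, while class 6 still held the largest share of the semaphorins, 41.1% ± 0.57. All 29 detected genes stayed at 1 TPM or more in both libraries.

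**Figure D2:**
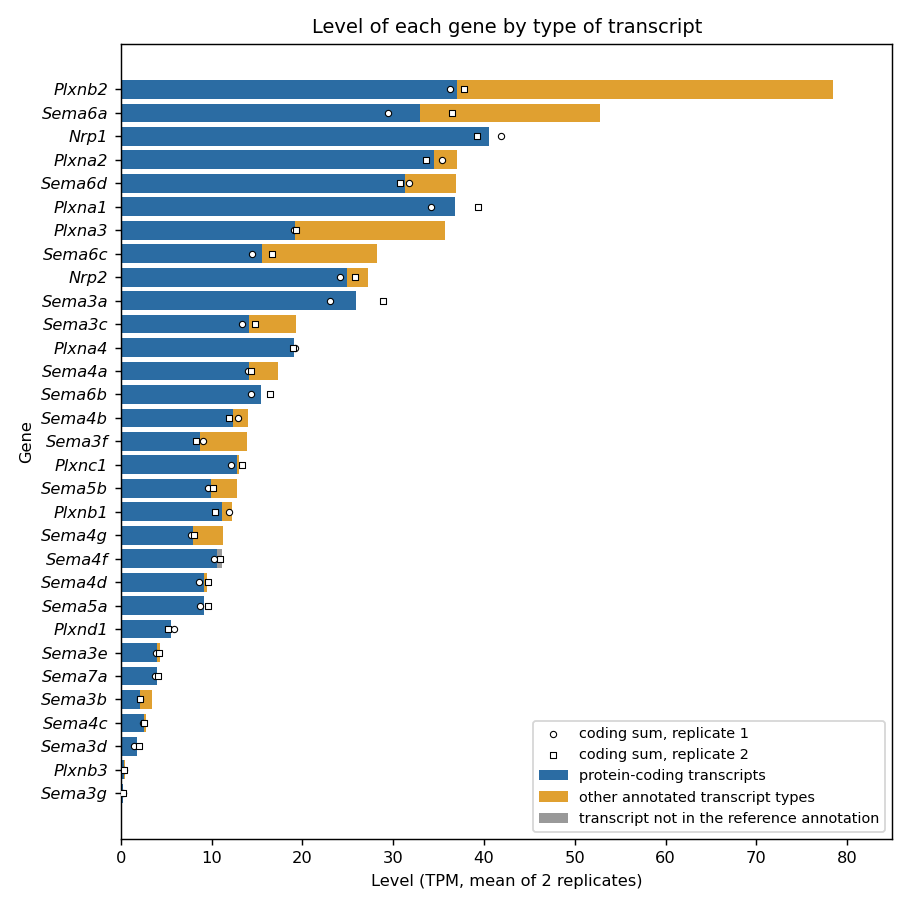
Mean level of each gene over the 2 replicates in TPM, with protein-coding transcripts in blue, other annotated transcript types in orange and a transcript without a match in GENCODE M21 in grey; circles and squares give the coding sum of replicates 1 and 2. The coding part of Plxnb2 is 47.1% of its bar, while Nrp1, Plxna1, Plxna4 and Sema3a are blue throughout. For Nrp1 and Plxna4 this was fixed in advance, since each has only 1 quantified transcript.

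Plxnb2 was not the only member of this kind. Coding transcripts made up under 75% of the TPM of 8 of the 31 genes, beside 18.6% of detected protein-coding genes, and at least 90% in 18 of the 31, beside 67.6%. After Plxnb2 at 47.1% came Plxna3 at 53.7% and Sema6c at 54.8%, then Sema3b at 60.3%, Sema6a at 62.4%, Sema3f at 62.6%, Sema4g at 70.5% and Sema3c at 73.3%. By counts the coding part of Plxna3 weighed more: Plxna3-201, its only coding transcript, had 53.7% of its TPM but 2787 of 3420 counts in replicate 1 and 2586 of 3193 in replicate 2.

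The 24 members averaging 5 TPM or more fell into those with a single leading transcript and those with several. In 12 of them the main transcript held at least 80% of the gene. It held 100% ± 0 in Nrp1-201, Plxna4-201, Sema5a-201 and Plxnd1-201, 99.7% in Plxna1-202, 98.0% in Plxnc1-201, 96.1% in Sema6b-201 and 95.2% in Sema4f-201. Only 1 transcript each was quantified for Nrp1, Plxna4 and Sema5a, so their 100% was fixed in advance. Plxna2-201 held 93.3%, Sema4b-201 88.5%, Plxnb1-201 86.0% and Sema3a-201 84.9%. In the other 12, Sema3c-201 held 72.4%, Sema4d-201 72.0%, Sema5b-201 58.8%, Sema3f-201 54.5%, Plxna3-201 53.7%, Sema4g-201 51.3% and Sema6c-201 50.3%. The main transcript was a coding one in 23 of the 24; the exception was Plxnb2-205. By expected counts in place of TPM, 14 of the 24 main transcripts held at least 80%, Sema3c-201 at 81.7% and Plxna3-201 at 81.2% among them, while Plxnb2-205 held 10.5% of Plxnb2.

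Nrp2 was made with both of its known carboxy-terminal endings in similar amounts. The ending of Nrp2-204, shared by 4 transcripts, summed to 13.8 TPM in replicate 1 and 13.9 TPM in replicate 2, and that of Nrp2-201, shared by 2, to 10.3 and 11.8 TPM. As shares of the coding TPM of Nrp2 these were 55.7% ± 2.25 and 44.3% ± 2.25, with the first ending above the other in both libraries. In the sequences printed above, the last 3 codons of Nrp1 read TCAGAGGCG and those of Nrp2-204 TCGGAGGCA, while Nrp2-201 ends in TCGCACTGC. The ending that Nrp1 and Nrp2-204 have in common in protein form is known to bind the adaptor Gipc1, whose own gene stood at 91.5 and 79.8 TPM. As single transcripts, Nrp2-204 held 42.5% ± 0.72 of the gene and Nrp2-201 28.2% ± 5.59. The deposited level of Nrp2-204 in replicate 1, 11.6 TPM, lay outside its own deposited interval of 3.30 to 11.2 TPM.

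Of the optional stretches of Nrp2, the 15 nt stretch was in transcripts that held 28.7% and 35.1% of its coding TPM, and the 51 nt stretch in 8.37% and 9.51%. The 15 nt stretch begins with GTGAG and directly follows a coding exon, which the transcripts that skip it end earlier. Sema6d varied more. Sema6d-208 held 37.8% ± 4.77 of the gene and Sema6d-206 22.9% ± 0.04. Transcripts with the 156 nt stretch held 39.8% and 39.5% of the coding TPM of Sema6d, those with the 57 nt stretch 48.0% and 39.7%, and those with the 39 nt stretch 18.7% and 12.7%. Sema6d was thus present in long and short coding forms together, and the share of the 156 nt stretch differed least between the libraries.

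**Figure D3:**
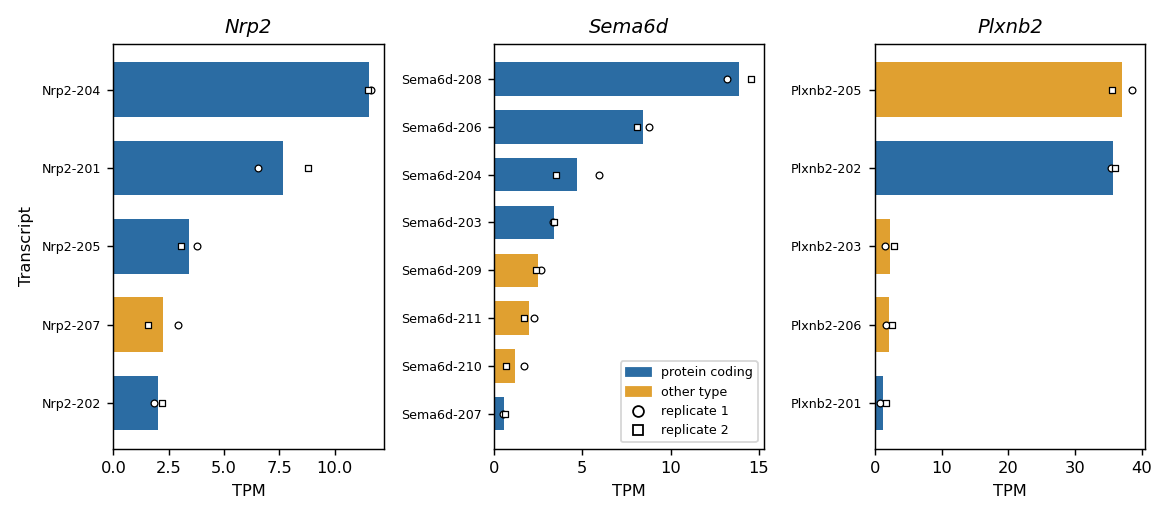
Level in TPM of each transcript with a mean of at least 0.5 TPM of Nrp2, Sema6d and Plxnb2; bars are means of the 2 replicates, circles and squares the replicates, blue for coding and orange for other types, each panel with its own scale from 0. In Plxnb2 the orange bar of the short Plxnb2-205 is about as long as the blue bar of Plxnb2-202.

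In Sema5b a coding form differed between the libraries. Sema5b-202, the transcript with the 87 nt stretch, had 1.20 TPM in replicate 1 and 3.47 TPM in replicate 2, and the deposited intervals, 0.07 to 2.21 and 2.33 to 4.59 TPM, did not overlap. It held 12.5% and 34.1% of the coding TPM of Sema5b. The stretch lies between a pair of coding exon parts of Sema5b-201 with no gap on either side and begins with GTGAG. It was chosen after its values were seen, and with 1 library on each side the difference has no replicate check.

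Several further members were divided between transcripts. Sema4a-213 held 35.5% ± 14.2 of its gene and Sema4a-214 24.4% ± 8.92, Sema4d-201 72.0% ± 5.08 and Sema4d-203 22.1% ± 10.7. Within Sema4a and within Sema4d these transcripts share 1 coding sequence and differ outside it. Sema4g-202, annotated as a target of nonsense-mediated decay, held 29.5% ± 0.99 of Sema4g. Sema6a had 3 main coding transcripts, Sema6a-201 with 23.3% ± 2.47 of its TPM, Sema6a-202 with 22.01% ± 0.48 and Sema6a-206 with 15.9% ± 4.05. By counts their shares were 38.7%, 21.8% and 16.6%. A coding stretch of 165 nt at chr18:47270609-47270773 was in 64.7% of the coding TPM of Sema6a in both libraries, since Sema6a-202 skips it.

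On the scale of TPM + 1 the members had small ratios between the libraries. The log2 ratio of TPM + 1, replicate 2 over replicate 1, had a median of 0.04 over the 31 and ran from -0.19 to 0.31. Its median was 0.07 over the 29 averaging 1 TPM or more and 0.05 over the 15661 genes at that level. The median size of the ratio, without its sign, was 0.09 in the 29 and 0.14 in all genes. None of the 31 passed 1.5-fold on this scale, where 3.96% of genes did. For a set of 31 genes this is near that share, and members and all genes were not matched for count depth.

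By counts, 13 of the 31 (41.9%) differed between the libraries at an adjusted p under 0.05 in an exact binomial test with Benjamini-Hochberg adjustment over 17664 genes, beside 34.4% of all tested genes. Of these, 5 were higher in replicate 2 (background 15.7%) and 8 lower (background 18.7%). The test compares these 2 libraries with the noise of counting and says nothing about a condition. As log2 ratios of counts, on which the test was run, the 5 called higher were Sema3d at 0.37 (204 and 254 counts, adjusted p 0.023 in the exact binomial test), Sema3a at 0.19 (2689 and 2961, 4.7e-06), Sema3c at 0.19 (1788 and 1957, 5.38e-04), Sema6a at 0.17 (4208 and 4541, 1.05e-06) and Plxna1 at 0.13 (6505 and 6863, 1.27e-06). On the lower side, the most negative was Sema3b at -0.41 (174 and 126 counts, 0.0453). Plxnb1 stood at -0.32 (2102 and 1619, 3.46e-10) and Plxnd1 at -0.25 (859 and 695, 0.00334). The other 5 called lower were Sema4b at -0.19, Nrp1 at -0.17, Plxna2 at -0.15, Sema6d at -0.14 and Plxna4 at -0.09. The scale changed the order: as ratios of TPM + 1, Sema3a had 0.31, Sema3d 0.28 and Sema3b -0.04, and the length the authors assigned to Sema3b was 2408 nt in replicate 1 and 1992 nt in replicate 2. At a required 1.5-fold, 0 members were called, beside 5.96% of genes.

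**Figure D4:**
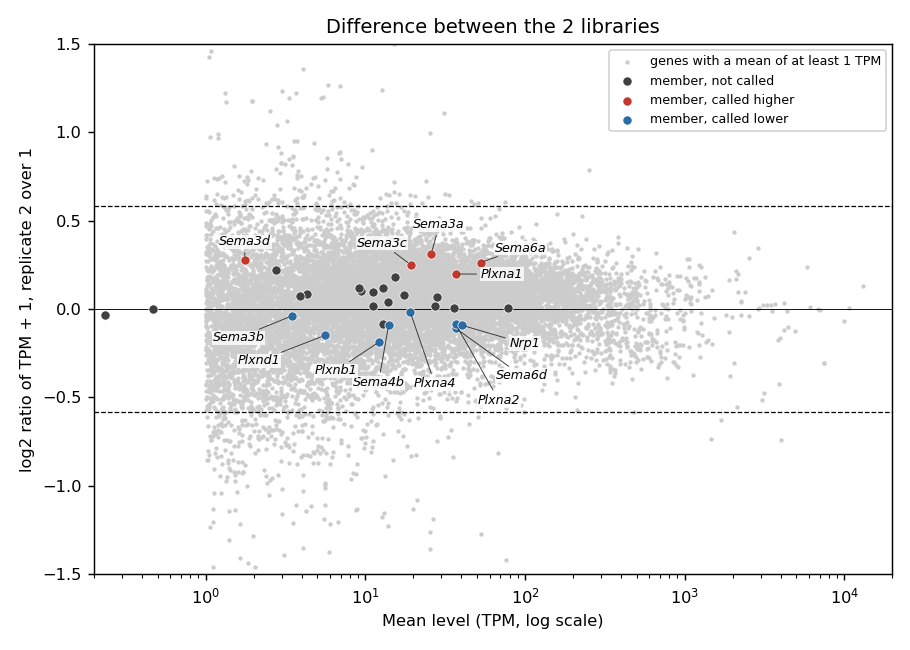
Log2 ratio of TPM + 1, replicate 2 over replicate 1, against mean TPM on a log scale, for 15661 genes of at least 1 TPM in grey and the 31 members in dark grey (not called), red (called higher) and blue (called lower); dashed lines mark 1.5-fold, and 176 grey genes lie beyond the axis limits of 1.5. All 31 members lie between the dashed lines, Sema3a highest and Plxnb1 lowest.

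The number of calls in each direction depended on how the libraries were scaled, although no member was called higher under 1 of the 4 scalings and lower under another. Of all called genes, 45.7% were higher in replicate 2 when scaled by the gene total, 58.5% by TMM, 55.6% by the size factors of DESeq2 and 80.6% by the spike-in RNA, which shifts every log2 ratio of counts by 0.12. By TMM, 12 members were called, 7 higher and 5 lower (background 35.5%, 20.8% higher and 14.7% lower), and by DESeq2 13, 7 higher and 6 lower (35.1%, 19.5% and 15.6%). With the spike-in RNA it was 12, 11 higher and 1 lower (43.7%, 35.2% and 8.46%). With no filter on low counts 12 members were called (23.1% of genes), and with a mean of at least 50 counts 13 of 30 (39.7%). In all 4 scalings Sema3a, Sema3c, Sema3d, Sema6a and Plxna1 were called higher and Plxnb1 lower. The other 7 calls were not made in all 4. For 5 members, Sema3f, Sema4g, Plxna3, Plxnb2 and Nrp2, the ratio of TPM was above 0 and that of counts below 0, and none of these was called by the gene total.

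Markers of some cell types moved between the same libraries, where 15.7% of all tested genes were called higher and 18.7% lower. All 4 choroid plexus genes and all 5 genes of meninges and fibroblasts were called lower in replicate 2, with median log2 ratios of -0.70 and -0.27, and 4 of 5 genes of oligodendrocyte precursors higher, with a median of 0.32. All 3 red cell genes were higher, with a median of 0.22. Of the 7 hindbrain genes 5 were lower and 1, En2, higher (4 and 53 counts), and of the forebrain genes Six3 was higher (1 and 19 counts). The choroid plexus, meningeal, precursor, red cell and hindbrain markers and Six3 were all above 0 in both libraries. En2, at 0.05 and 0.79 TPM, and Six3, at 0.02 and 0.42 TPM, stayed under 1 TPM. The endothelial list, relevant to Plxnd1, Nrp1 and the VEGF receptors, had 2 of 6 called lower and a median of 0.01. Neuron markers had 1 of 5 called higher and 1 lower (median 0.07), and radial glia 2 of 5 higher and 2 lower (median 0.03). Pericytes had 1 of 4 called lower (median -0.01) and microglia 1 of 6 lower (median -0.09). The part of these cell types, or of the extent of tissue taken, in the members' differences was not tested.

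Most of the pathway around the receptors was expressed as well. Of 53 partner genes, chosen by role, 50 reached 1 TPM in both replicates, beside 62.5% of protein-coding genes, a background not matched to the partners. By the same test, 15 were called higher in replicate 2 and 12 lower, against 15.7% and 18.7% of all genes, with a median log2 ratio of 0.07. Among kinases, adhesion proteins and other membrane partners, 14 of 15 were detected. L1cam, the adhesion protein that joins Nrp1 in the Sema3a receptor, had 109.9 and 122.2 TPM, and Itgb1, the integrin beta chain bound by Sema7a, 80.1 and 93.7 TPM. Mst1r, a receptor kinase that associates with B-type plexins, was the exception at 0.75 and 1.00 TPM. Of the VEGF ligands that share the neuropilins, 4 of 5 were detected. Vegfb led at 45.5 and 44.3 TPM, Pgf had 6.09 and 6.04 TPM, and Vegfd was low at 0.45 and 0.24 TPM.

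All 15 GTPases and exchange factors were detected, with Rac1 at 285.7 and 305.3 TPM and Rap1b, the small GTPase on which the plexin GAP domain acts, at 178.0 and 197.2 TPM. Of the cytoplasmic effectors 17 of 18 were detected. The collapsin response mediators Dpysl2, at 951.6 and 1076 TPM, and Dpysl3, at 745.2 and 850.5 TPM, were the highest of all partners and far above any receptor or ligand. Plxdc1, a plexin-domain protein of endothelium, stood at 0.71 and 0.88 TPM.

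**Figure D5:**
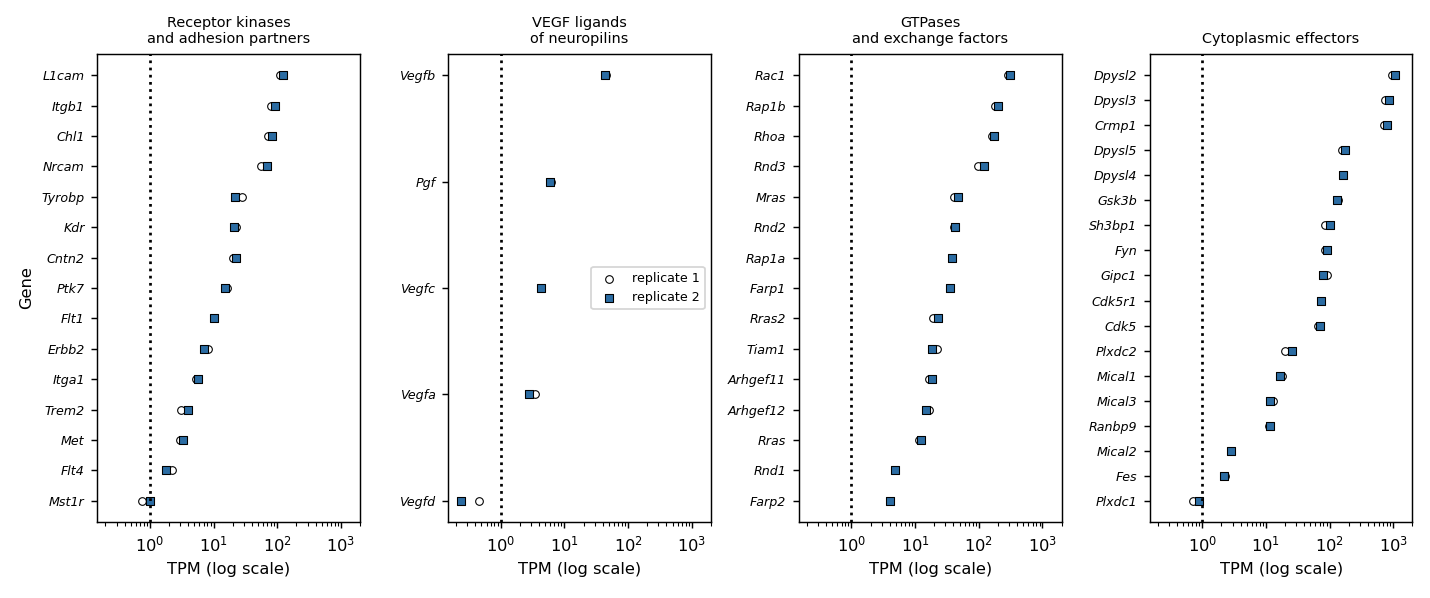
Levels of the 53 partner genes in TPM on a log scale, open circles for replicate 1 and filled squares for replicate 2, in the 4 role groups; the dotted line marks 1 TPM. Dpysl2 lies farthest to the right at 951.6 and 1076 TPM, and Mst1r, Vegfd and Plxdc1 are the genes with a value under the line.

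In the genome the 31 genes lie on 17 chromosomes, and some lie close to each other. On chromosome 5, Sema3d, Sema3a, Sema3e and Sema3c lie in a row on the plus strand, separated by 536.5, 422.7 and 3318 kb, with 0, 1 and 16 protein-coding genes between them. Their mean levels along the row were 1.76, 25.9, 4.34 and 19.2 TPM. On chromosome 9, Sema3b and Sema3f lie 72.3 kb apart, with 3 protein-coding genes between them and 3.47 and 13.9 TPM. On the X chromosome Plxnb3 and Plxna3 lie 556.6 kb apart, with 23 such genes between them and 0.47 and 35.7 TPM. Sema3f and Plxnb1, 1385 kb apart on chromosome 9 with 57 such genes between them, were nearly level at 13.9 and 12.2 TPM. The pairs named here that lie closer together than Sema3f and Plxnb1 were unequal in level. Promoters of 26 of the 31 genes, 37 in all, were found in the RefSeq table (GRCm38.p6), each 300 bases long. They held a median of 15 CG dinucleotides, beside 7 over 32851 promoters, and 23 of the 37 held at least 10, beside 43.5% of all. The background took promoters of genes of any type and level, so it was not matched to the members. Several promoters of the same gene were counted separately. The range was wide, from 2 in Sema3a and in 1 of the 3 promoters of Sema4d to 42 in Sema3c. The letters TATAAA, searched from 50 to 6 bases before the start on the gene's strand, were found in 0 of the 37, beside 2.49% of all, and their absence says only that these letters are not in the window searched.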

How the data were processed

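Total RNA-seq of 2 hindbrains was analysed from the authors' gene and transcript tables. Per the file headers and the library descriptions, reads of each replicate were assigned to mm10 and annotation M4 by themselves. Of the aligner, quantifier, their versions and the strand setting, each is "not given in the sources used here". Expected counts were deposited as unnormalised estimates of reads and were rounded for the tests. TPM and FPKM were deposited as the authors scaled them, with spike-in RNA (8.15% and 7.72% of TPM) in the total. The deposited credibility bounds were used as score values; their level is not stated in the file, and TPM can lie outside them.

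Symbols, types, coordinates and sequences came from GENCODE M21; 169 of 184 matched transcripts of the members had the same length as in the authors' tables, and Nrp1-201 was longer there (5907 against 3597 nt). Detection meant at least 1 TPM in both replicates and the pseudocount was 1. The exact two-sided binomial test took genes with a mean of at least 10 counts. Alternatives were other detection limits, posterior means, rescaled TPM and FPKM, pseudocounts of 0.1 and 0.01, TMM (edgeR 4.0.16), DESeq2 1.42.0 and spike-in scaling, other filters, each replicate alone, and transcript shares by expected counts. CG dinucleotides were counted in the whole promoter window of 250 bases before to 50 after the start, and TATAAA on the gene's strand only, from 50 to 6 bases before the start. Python 3.11.15, scipy 1.17.1, pandas 2.3.3, matplotlib 3.10.9 and R 4.3.3 were used. The members, lists and tests were chosen with earlier results of these data known. The text names all 31 members, the 2 highest partners of each role group and those under 1 TPM in a replicate, and the main transcript of each member of at least 5 TPM, with the second where it held at least 20%; Gipc1, En2, Six3 and Sema5b-202 were added after their values were seen. The list's older symbol Figf was read as Vegfd. p-values set the difference between these 2 libraries against the noise of counting alone, and that difference may be technical.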

Additional observations from a re-analysis of the deposited data

How the results depend on the processing

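The number of members detected was 29 with posterior means, rescaled TPM, coding transcripts alone and either replicate left out, 31 at 0.1 TPM and 24 at 5 TPM; for the 53 partners the latter were 53 and 41. The summed levels of semaphorins, plexins and neuropilins depend on what TPM is scaled over. Without spike-in, mitochondrial and ribosomal RNA they were 333.6 TPM for semaphorins, 270.4 for plexins and 76.8 for neuropilins, from FPKM rescaled over genes 319.3, 258.8 and 73.5, and from coding transcripts alone 231.4, 176.3 and 65.5. Posterior means gave 235.8 for plexins and 65.9 for neuropilins. The number of members called stayed between 12 and 13 over the scalings and filters and was 0 with a 1.5-fold minimum. The median log2 ratio of the members ranged from 0.01 with TMM-scaled to 0.10 with spike-in scaled counts. Plxna4, called lower by the gene total, had a log2 ratio of 0.0358 with spike-in scaled counts and was not called there. No paired analysis was possible because both replicates belong to 1 group. Depth limits Sema3g and Plxnb3 most, at 19 to 58 counts; for genes with many short transcripts the division of reads between them is an estimate.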

Other observations

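Genes named Plxna4os1, Plxna4os2 and Plxna4os3 are annotated antisense to Plxna4 on chromosome 6. Plxna4os2 (chr6:32451170-32454750, plus strand) had 1.49 TPM in replicate 1 and 0.97 TPM in replicate 2, from 62 and 37 counts, and Plxna4os1 (chr6:32511073-32515576, plus strand) 0.47 and 0.30 TPM, from 19 and 11 counts. Plxna4os3 was listed at 0 in both. The strand setting of the counting is not given in the sources used here, so reads from Plxna4 and these genes cannot be told apart where they overlap. Expected counts were whole numbers, within 0.005, for 28 of the 31 members in both libraries, beside 70.2% of tested genes; the exceptions, Plxna1, Plxnb1 and Sema4c, had a fractional count in at least 1 library.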
